A study of Mus musculus with 9 samples.

Results

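The set comprised 50 genes of the cell cycle, chosen by symbol from the 78239 genes of the count table. It held 22 mitosis genes (cyclins, mitotic kinases, spindle and centromere proteins), 23 DNA replication genes (helicase, polymerase, nucleotide supply and chromatin copying) and 5 regulators of the G1 phase. All 50 passed the filter on low counts, with levels in single libraries from 4.98 to 709 CPM (read counts scaled to a common library total) for the mitosis genes and from 1.16 to 552 CPM for the replication genes.

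Polyadenylated RNA was sequenced from flow-sorted intestinal epithelial cells. The mice were Lgr5-2A-eGFP animals, 8 weeks old, which carry green fluorescent protein (GFP) as a reporter of the stem cell receptor gene Lgr5. There were 3 libraries each of colon GFP-high cells, colon GFP-negative cells and small intestine, and every mouse carried the same reporter with no other treatment named. Which GFP fraction the small intestinal cells came from is not given by the labels, so region and fraction cannot be told apart where small intestine enters a comparison. At least 30000 cells per fraction were sorted from colon and 50000 from small intestine. Separate animals are not stated, so p-values measure the spread between these libraries. Total counts lay between 86621513 and 106673547 per library, and all 8 epithelial markers were detected in every library, summing to 12331 to 26480 CPM in colon and 13306 to 25924 CPM in small intestine.

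Lgr5 went against the labels in the colon replicate 2 pair. In replicates 1, 2 and 3, in the order used for all levels, Lgr5 had 43.5, 0.958 and 73.0 CPM among GFP-high colon libraries and 2.84, 62.1 and 6.28 CPM among GFP-negative ones. It had 57.9, 120 and 209 CPM in small intestine. The replicate 2 libraries are therefore named as "labelled" GFP-high or GFP-negative, and the medians and calls of each comparison are also given without that pair. Part of the library names, a tag, was shared by GFP-high 1, GFP-negative 1 and small intestine 2, by the replicate 2 colon pair, and by GFP-high 3 and small intestine 3. The labels do not say what the tag stands for.

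Cells enter the cycle when cyclin D-dependent kinases inactivate the retinoblastoma protein and release E2F factors, which switch on the genes for DNA synthesis. Mitosis genes follow later and depend on the B-MYB, MuvB and FOXM1 factors, while p21, the product of Cdkn1a, inhibits the kinases of both steps. In the intestine, Lgr5-positive cells at the crypt base divide, their daughters divide rapidly in the transit-amplifying zone, and cells leave the cycle as they mature.

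Mitosis and replication genes varied together across the 9 libraries, and this variation did not follow the colon fraction labels. The lowest levels were those of the library labelled GFP-high 2 and of GFP-negative 3, both from colon, and the highest were those of small intestine 2 and 3. GFP-high 2 was among the 2 lowest of 9 libraries for 22 of 22 mitosis and 20 of 23 replication genes, against 4124 of all 20610 genes tested. GFP-negative 3 was among the 2 lowest for 21 of 22 and 21 of 23, against 7063 of all genes. Small intestine 2 was the highest of 9 for 15 of 22 mitosis and 14 of 23 replication genes, against 2423 of all genes.

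Each gene's level was also expressed as log2 CPM minus its own mean over the 9 libraries. The median of the mitosis genes then lay at 0.08, -1.12 and 0.13 in GFP-high, at -0.03, 0.41 and -0.95 in GFP-negative and at 0.10, 0.84 and 0.57 in small intestine. That of the replication genes lay at 0.08, -0.89 and 0.28, at -0.38, 0.47 and -1.17, and at -0.14, 1.00 and 0.82. The lists parted most in GFP-negative 1, where mitosis genes were near their mean and replication genes below it. Over all genes tested the same medians ranged only from -0.08 in GFP-high 1 to 0.08 in GFP-high 3. In bulk libraries, fewer dividing cells and less RNA of these genes per cell cannot be told apart.

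**Figure D1:**
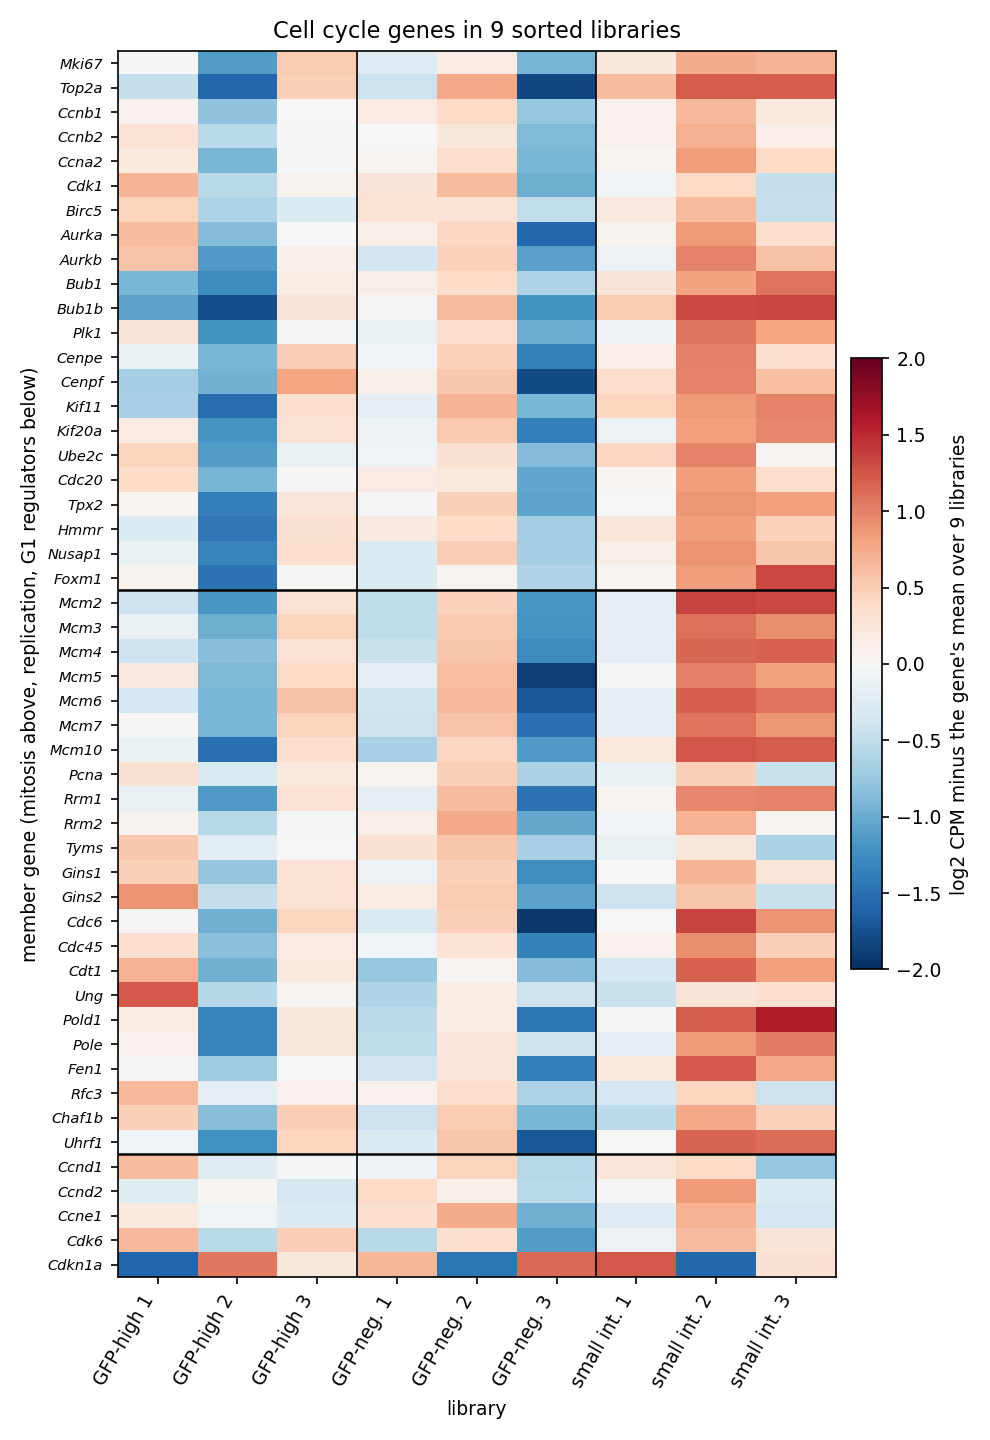
Level of each of the 50 genes (rows: mitosis above, replication in the middle, G1 regulators below) in the 9 libraries (columns), coloured by log2 CPM minus the gene's mean over the 9 libraries. Blue columns stand at colon GFP-high 2 and GFP-negative 3, where the mitosis medians were -1.12 and -0.95, and red ones at small intestine 2 and 3, while Cdkn1a in the bottom row has other high and low libraries.

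Markers of other cells varied in the same libraries. The 6 colonocyte markers, all detected in every library, summed to 1048, 25614 and 11033 CPM in GFP-high, to 13639, 5416 and 28318 CPM in GFP-negative and to 4283, 1215 and 2123 CPM in small intestine. GFP-high 2 and GFP-negative 3 had the highest colonocyte sums, most of which was Car1, at 21057 and 24674 CPM. Among colon libraries, Krt20, Slc26a3 and Ceacam1 were also highest in either of these, but Car4 and Aqp8 were highest in GFP-high 3, at 523 and 240 CPM. Over all libraries Car4, Slc26a3 and Krt20 were highest in small intestine 1, at 784, 135 and 2364 CPM. The 6 enteroendocrine markers reached 11772 CPM in GFP-high 2, against 150 to 3343 CPM in the other colon libraries and 376 to 535 CPM in small intestine. The 6 goblet cell markers, all detected, summed to 6235 to 35253 CPM in colon, highest in GFP-high 2, and to 1062 to 7005 CPM in small intestine. The 12 leukocyte markers summed to 71.0, 1099 and 80.9 CPM in GFP-high, to 667, 29.1 and 8026 CPM in GFP-negative and to 3008, 2955 and 1193 CPM in small intestine. Of these, 8 to 12 were detected per colon library, with Itgax at 0 in GFP-high 1, GFP-high 3 and GFP-negative 2, and 11 or 12 per small intestinal library. The part of these cells in the level of the cell cycle genes was not tested.

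The promoters of the members differed in the motifs they held. The cell cycle homology region (CHR, TTTGAA) is known from mitosis genes and often pairs with CCAAT boxes, and E2F sites are known from replication genes. In the 250 bases before the start, on either strand, TTTGAA was present in 7 of 17 mitosis genes with a RefSeq promoter (41.2%), in 3 of 19 replication genes (15.8%) and in 18.3% of 27025 genes. CCAAT was present in 15 of 17 mitosis genes (88.2%), in 12 of 19 replication genes (63.2%) and in 37.5% of all genes. An E2F site, searched as TTTCCCGC, TTTGGCGC, TTTCGCGC or TTTGCCGC, was present in 1 of 17 mitosis genes (Cdk1), in 6 of 19 replication genes (31.6%) and in 2.16% of all genes. The 6 were Mcm5, Mcm6, Mcm7, Cdc6, Rfc3 and Uhrf1. These sites can overlap each other on opposite strands. A match describes the letters and not the binding of a factor. The windows of the 2 most abundant mitosis genes with a CHR and the 2 most abundant replication genes with an E2F site are shown from RefSeq, build GRCm38.p6, each read 5′ to 3′ on the gene's strand and ending just before its start. They lie at chr2:164769679-164769928 (Ube2c, plus strand), chr9:70421555-70421804 (Ccnb2, minus), chr1:128359706-128359955 (Mcm6, minus) and chr5:138171884-138172133 (Mcm7, minus). The starts are those of RefSeq. In the GENCODE M21 annotation Mcm7 starts further upstream, at 138172422, so its window lies inside that gene. Ube2c starts there at 164769898, before the end of its window. Capitals mark CHR and CCAAT letters on either strand in Ube2c and Ccnb2, and E2F letters in Mcm6 and Mcm7.
Ube2c: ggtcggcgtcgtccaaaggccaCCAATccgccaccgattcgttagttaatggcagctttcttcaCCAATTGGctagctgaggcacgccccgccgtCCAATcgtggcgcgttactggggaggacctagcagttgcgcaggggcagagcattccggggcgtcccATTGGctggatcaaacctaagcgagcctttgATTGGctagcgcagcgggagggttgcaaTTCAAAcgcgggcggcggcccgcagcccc
Ccnb2: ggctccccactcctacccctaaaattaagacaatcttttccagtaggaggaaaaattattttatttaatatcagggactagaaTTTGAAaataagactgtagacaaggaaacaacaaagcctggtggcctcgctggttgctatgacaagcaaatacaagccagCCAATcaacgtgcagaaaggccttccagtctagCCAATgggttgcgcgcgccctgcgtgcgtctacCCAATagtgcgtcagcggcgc
Mcm6: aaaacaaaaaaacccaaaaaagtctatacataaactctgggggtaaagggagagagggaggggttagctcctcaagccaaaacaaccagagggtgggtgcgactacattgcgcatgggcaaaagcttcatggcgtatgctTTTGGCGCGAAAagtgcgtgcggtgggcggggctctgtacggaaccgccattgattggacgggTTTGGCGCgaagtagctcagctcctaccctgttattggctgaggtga
Mcm7: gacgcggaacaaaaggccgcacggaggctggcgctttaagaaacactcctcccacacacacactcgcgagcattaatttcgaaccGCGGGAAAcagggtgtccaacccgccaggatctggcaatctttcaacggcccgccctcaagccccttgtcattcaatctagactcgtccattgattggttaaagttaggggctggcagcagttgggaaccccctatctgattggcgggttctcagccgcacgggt
Ube2c held 1 CHR, on the opposite strand, downstream of CCAAT boxes in both directions, and Ccnb2 held 1 CHR on its own strand upstream of its CCAAT boxes. Mcm6 held 3 E2F matches, of which 2 overlap, and Mcm7 held 1.

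Among the mitosis genes, those for chromosome structure spanned wide ranges. Mki67, which encodes the coat of mitotic chromosomes and is the usual marker of dividing cells, stood at 51.6, 24.3 and 75.2 CPM in GFP-high, at 44.2, 59.4 and 27.7 CPM in GFP-negative and at 61.6, 87.9 and 84.8 CPM in small intestine. Top2a, the topoisomerase that untangles sister chromatids, stood at 64.3, 30.1 and 125 CPM, at 66.3, 151 and 25.4 CPM and at 138, 206 and 207 CPM. For both genes GFP-high 2 and GFP-negative 3 were the lowest libraries, and a single colon library reached into the small intestinal range: GFP-high 3 for Mki67 and GFP-negative 2 for Top2a.

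The cyclins, kinases and their transcription factor form the largest mitotic subgroup, with 9 genes. Cdk1, the kinase that drives entry into mitosis, stood at 309, 133 and 204 CPM in GFP-high, at 231, 299 and 98.8 CPM in GFP-negative and at 187, 255 and 139 CPM in small intestine. Its highest library was GFP-high 1, and its small intestinal levels lay inside the colon range. Ccnb1, its cyclin B partner, stood at 176, 94.8 and 165 CPM, at 186, 218 and 97.4 CPM and at 177, 258 and 189 CPM. Ccnb2 and Ccna2, encoding the other cyclins of G2 and mitosis, had the same pair of low libraries, at 154 and 121 CPM for Ccnb2 and 81.6 and 81.7 CPM for Ccna2. Plk1, a kinase of spindle assembly and mitotic exit, stood at 155, 57.1 and 127 CPM, at 118, 166 and 65.3 CPM and at 121, 274 and 224 CPM. Aurkb, a kinase that corrects chromosome attachment, stood at 196, 60.3 and 143 CPM, at 102, 183 and 62.7 CPM and at 122, 262 and 199 CPM. In both kinases small intestine 2 was the highest library and small intestine 1 lay within the colon levels. Aurka, the kinase of the spindle poles, and Birc5, which encodes survivin of the same complex as Aurkb, had largest-to-smallest ratios over the 9 libraries of 5.38 and 2.38. Foxm1, encoding the transcription factor of mitosis genes, stood at 14.6, 4.98 and 14.0 CPM, at 11.5, 14.4 and 9.15 CPM and at 14.4, 24.7 and 34.8 CPM. Its highest colon level was within 1 CPM of small intestine 1.

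The 6 genes of the spindle checkpoint and of anaphase promotion included the widest range in mitosis. Bub1b, which encodes a checkpoint protein that holds back anaphase (chromosome 2, 118598211 to 118641591 on GRCm38), stood at 20.3, 12.5 and 51.0 CPM in GFP-high, at 41.9, 65.6 and 18.5 CPM in GFP-negative and at 60.4, 106 and 107 CPM in small intestine. Its highest level was 8.59 times its lowest, and GFP-negative 2 was the sole colon library above the lowest small intestinal one. Bub1, a kinase of the same checkpoint, stood at 8.98, 7.08 and 18.9 CPM, at 18.4, 21.96 and 11.03 CPM and at 20.3, 29.5 and 36.1 CPM. In contrast to most mitosis genes, both were low in GFP-high 1 as well. Cenpe and Cenpf, proteins of the kinetochore, ranged from 17.5 to 90.0 CPM and from 11.6 to 79.8 CPM, each lowest in GFP-negative 3 and highest in small intestine 2. Ube2c and Cdc20, the ubiquitin-conjugating enzyme and the activator of the anaphase-promoting complex, stood at 483, 165 and 320 CPM and at 264, 108 and 209 CPM in GFP-high. In GFP-negative they stood at 339, 441 and 195 CPM and at 230, 238 and 99.6 CPM, and in small intestine at 473, 709 and 371 CPM and at 211, 366 and 264 CPM. Their small intestinal libraries overlapped with the colon ones.

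Spindle motors and spindle-binding proteins made up the rest of the mitosis genes. Kif11, the motor that pushes spindle poles apart, stood at 19.5, 10.6 and 37.9 CPM in GFP-high, at 26.7, 48.9 and 16.2 CPM in GFP-negative and at 41.0, 54.9 and 60.6 CPM in small intestine. Only GFP-negative 2 of the colon libraries lay within the small intestinal range of Kif11. Kif20a, a motor of cytokinesis, and Tpx2, Hmmr and Nusap1, which bind spindle microtubules, had ratios of the highest to the lowest library of 5.03, 4.75, 4.78 and 4.66. Per gene length, the mean level over the 9 libraries, in CPM per kilobase (RPKM), was highest among mitosis genes for Ccnb2 at 152, Ube2c at 149 and Cdc20 at 118.

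Replication begins with the MCM helicase, whose 6 subunits open the DNA. Mcm2 stood at 71.7, 42.8 and 117 CPM in GFP-high, at 67.7, 131 and 42.8 CPM in GFP-negative and at 84.7, 245 and 238 CPM in small intestine. Mcm6 stood at 192, 128 and 360 CPM, at 183, 376 and 74.3 CPM and at 212, 552 and 511 CPM. Small intestine 2 and 3 were above every colon library for both genes, while small intestine 1 lay among the colon levels. Small intestine 2 and 3 were also above every colon library for Mcm3, Mcm4, Mcm5 and Mcm7, of which Mcm5 spanned the most, from 37.5 CPM in GFP-negative 3 to 277 CPM in small intestine 2. The median deviation of the 6 subunits was -0.91 in GFP-high 2 and -1.38 in GFP-negative 3, and 1.13 and 1.01 in small intestine 2 and 3.

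Licensing and loading factors place the helicase on DNA. Cdc6, which brings it to origins, stood at 23.5, 11.8 and 31.1 CPM in GFP-high, at 18.9, 32.1 and 6.05 CPM in GFP-negative and at 23.1, 59.1 and 43.0 CPM in small intestine. It had the widest range of all replication genes, with a largest-to-smallest ratio of 9.78. Cdt1, its partner in licensing, stood at 128, 40.5 and 91.1 CPM, at 46.7, 82.5 and 43.6 CPM and at 61.9, 178 and 139 CPM. Cdt1 was 2.74 times higher in GFP-high 1 than in GFP-negative 1, against 1.25 times for Cdc6. Mcm10, which helps start unwinding, ranged from 9.20 CPM in GFP-high 2 to 61.6 CPM in small intestine 2. Cdc45, Gins1 and Gins2, the helicase cofactors, had their lowest level in GFP-negative 3, at 10.2, 8.20 and 22.8 CPM. Of Gins2's exon bases, 67.3% are shared with Gse1 on the other strand in GENCODE M21, so its count is uncertain.

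Nucleotide supply genes behaved unevenly between regions. Rrm2, the regulated subunit of ribonucleotide reductase, stood at 95.2, 61.9 and 88.0 CPM in GFP-high, at 98.2, 154 and 44.5 CPM in GFP-negative and at 87.3, 148 and 94.6 CPM in small intestine. Its highest library was GFP-negative 2, above all small intestinal ones. Rrm1, the large subunit of the same enzyme, reached 261 and 267 CPM in small intestine 2 and 3, above the 208 CPM of GFP-negative 2. Tyms, which makes thymidylate, stood at 230, 135 and 159 CPM, at 196, 233 and 101 CPM and at 143, 186 and 102 CPM, so that its highest levels were in colon.

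The polymerase subgroup divided in the same way. Pold1, the catalytic subunit of polymerase delta (chromosome 7, 44532746 to 44548849), stood at 67.3, 24.3 and 71.1 CPM in GFP-high, at 42.5, 67.4 and 22.5 CPM in GFP-negative and at 59.3, 142 and 183 CPM in small intestine. Small intestine 2 and 3 stood above all colon libraries, and small intestine 1 did not. Pcna, the clamp that tethers polymerases, stood at 179, 117 and 168 CPM, at 150, 201 and 93.8 CPM and at 132, 203 and 107 CPM, with the smallest largest-to-smallest ratio of the 23 genes, 2.16. Rfc3, a subunit of the clamp loader, had its highest level, 114 CPM, in GFP-high 1. Pole, the catalytic subunit of polymerase epsilon, ranged from 4.06 to 20.7 CPM. Fen1, the flap endonuclease, ranged from 1.16 to 6.99 CPM, and 84.2% of its exon bases are shared with Tmem258 and Gm10143, so its count is uncertain.

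Chromatin and repair genes closed the replication list. Uhrf1, which guides the copying of DNA methylation, stood at 75.9, 34.7 and 108 CPM in GFP-high, at 66.4, 119 and 24.9 CPM in GFP-negative and at 80.5, 181 and 174 CPM in small intestine. Chaf1b, a subunit of the chromatin assembly factor, ranged from 37.0 to 118 CPM. Ung, the glycosylase that removes uracil from DNA, stood at 8.34, 2.42 and 3.70 CPM, at 2.35, 3.97 and 2.66 CPM and at 2.63, 4.28 and 4.52 CPM. Its level in GFP-high 1 was the highest, and the next, in small intestine 3, was 4.52 CPM. Per gene length, mean levels over the 9 libraries in RPKM were highest for Pcna at 62.6 and Mcm6 at 61.6, and lowest for Ung at 0.709 and Pole at 1.02.

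The G1 regulators followed other patterns. Ccnd1, a D-type cyclin, stood at 82.7, 45.4 and 52.3 CPM in GFP-high, at 50.01, 72.8 and 36.7 CPM in GFP-negative and at 63.3, 70.3 and 31.6 CPM in small intestine. Ccnd2, another D-type cyclin, stood at 344, 415 and 320 CPM, at 528, 433 and 278 CPM and at 413, 732 and 334 CPM. The regions overlapped for both cyclins, and GFP-high 2 was not low for Ccnd2. Ccne1, the cyclin of the step into DNA synthesis, stood at 22.6, 18.7 and 16.3 CPM, at 24.6, 32.8 and 10.1 CPM and at 16.5, 31.9 and 15.4 CPM. Cdk6, a kinase partner of D-type cyclins, stood at 55.8, 24.5 and 50.4 CPM, at 24.3, 44.7 and 16.4 CPM and at 32.9, 54.5 and 42.6 CPM. Cdk6 had the same low pair of colon libraries as the replication genes, together with GFP-negative 1.

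Cdkn1a (chromosome 17, 29090976 to 29100727), the CDK inhibitor p21 and a target of p53, ran differently from all the others. It stood at 35.2, 220 and 124 CPM in GFP-high, at 168, 38.9 and 232 CPM in GFP-negative and at 249, 35.8 and 131 CPM in small intestine. Each group held 1 library at 35.2 to 38.9 CPM and others at 124 to 249 CPM. The low libraries were GFP-high 1, GFP-negative 2 and small intestine 2, which had the highest mitosis medians of GFP-negative and of small intestine, while GFP-high 1 and GFP-high 3 had nearly equal mitosis medians. Its range was 7.07-fold over the 9 libraries, and groups overlapped throughout.

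**Figure D2:**
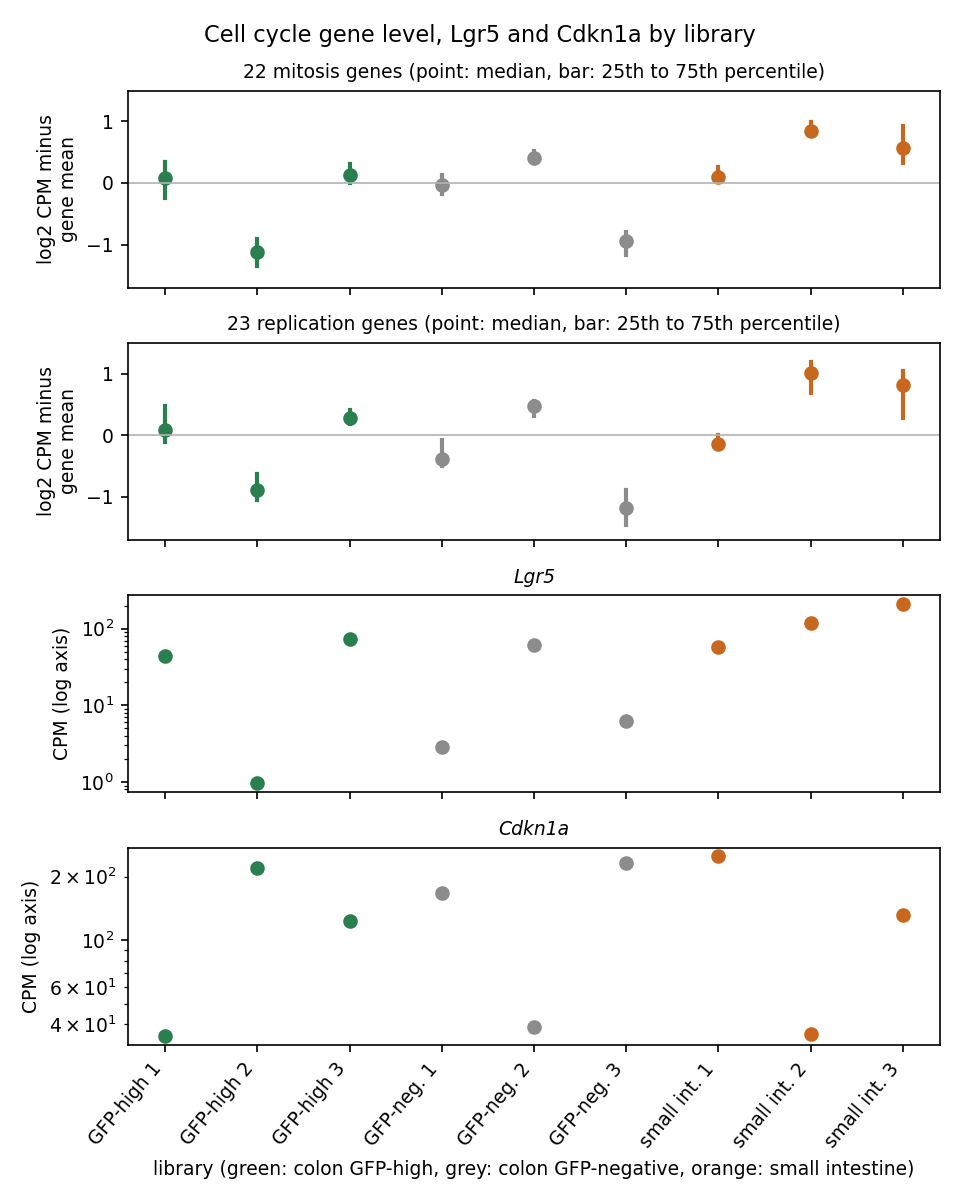
Median log2 CPM minus the gene's mean for the 22 mitosis and the 23 replication genes (points, with bars from the 25th to the 75th percentile over genes), and the CPM of Lgr5 and of Cdkn1a on log axes, in the 9 libraries. Colon GFP-high 2 and GFP-negative 3 had the lowest medians, with Lgr5 at 0.958 and 6.28 CPM and Cdkn1a at 220 and 232 CPM. Cdkn1a was highest in small intestine 1, at 249 CPM, where the mitosis median was 0.10. GFP-negative 1 had Lgr5 at 2.84 CPM and Cdkn1a at 168 CPM with a mitosis median of -0.03.

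The first comparison asked how reporter-high and reporter-negative colon cells differed. As labelled, no cell cycle gene was called between colon GFP-high and colon GFP-negative by the edgeR quasi-likelihood test at an adjusted p under 0.05, and none had an unadjusted p under 0.05. Over all 20610 genes tested 0% were called, and 222 genes (1.08%) had an unadjusted p under 0.05. DESeq2 called 1 gene (0.00485%) and limma-voom 0, none of them a member. The median log2 fold change, GFP-high over GFP-negative, was -0.05 for mitosis genes and 0.16 for replication genes, against -0.02 for all genes. Scaled by total counts alone these 3 medians were 0.16, 0.35 and 0.13, and with upper-quartile factors they were 0.03, 0.24 and 0.05, so the sign of the mitosis median changed together with that of all genes. Single genes ran from -0.59 (Bub1b) to 0.69 (Ung), with standard errors from 0.35 to 0.86 and an adjusted p of 1 throughout. No member had groups that did not overlap, against 2.81% of all genes higher and 1.59% lower in GFP-high. With the name tag as a block, the medians were -0.55 for mitosis genes, with 22 of 22 below 0, and -0.40 for replication genes, with 20 of 23 below 0, so the direction for replication genes turned. It also turned without GFP-negative 3, at -0.20, or without GFP-high 3, at -0.10, and that for mitosis genes turned without the library labelled GFP-high 2, at 0.28, or that labelled GFP-negative 2, at 0.26.

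The medians changed without the replicate 2 pair, while the absence of calls did not. Without that pair, the median log2 fold change was 0.58 for mitosis genes, with 21 of 22 above 0, and 0.96 for replication genes, with 23 of 23 above 0, against a median of 0 over 21770 genes. No cell cycle gene was called by edgeR or by DESeq2, which called 3.22% of all genes, and 3 had an unadjusted p under 0.05 by edgeR, beside 1577 of all genes. Between the 2 libraries left per fraction, 30 members did not overlap and were higher in GFP-high, beside 19% of all genes, and Cdkn1a did not overlap and was lower, beside 18.7% of all genes. The pair was left out because of Lgr5. It held the lowest GFP-high and the highest GFP-negative library for 22 of 22 mitosis and 23 of 23 replication genes. Leaving it out thus moves these genes toward GFP-high, and the medians and non-overlaps without it cannot serve as a test of the fractions.

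Lgr5 in the 6 colon libraries fell into separate clusters, 3 between 43.5 and 73.0 CPM and 3 between 0.958 and 6.28 CPM, so no correlation was computed. GFP-negative 1, with Lgr5 at 2.84 CPM, had mitosis genes near their mean (median -0.03), while GFP-high 2, with Lgr5 at 0.958 CPM, had them at -1.12. The 2 pairs of colon libraries that share a name tag were set side by side instead, with no test. In the 2_7_2 pair, Lgr5 was 15.1 times higher in GFP-high 1 than in GFP-negative 1. Replication genes had a median log2 ratio of 0.37 and were higher in 22 of 23 cases, all but Rrm2 at -0.05, and mitosis genes had a median of 0.17 and were higher in 14 of 22. Over all genes tested the median was -0.13. Cdkn1a was 4.75 times lower in GFP-high 1. In this pair replication genes pointed one way and mitosis genes were divided, with Aurkb at 0.94 and Bub1b at -1.04.

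In the 27_6_1 pair, Lgr5 was 61.6 times lower in the library labelled GFP-high 2 than in that labelled GFP-negative 2. Mitosis genes had a median log2 ratio of -1.50 and replication genes of -1.41, and 0 of 22 and 0 of 23 were higher in the library labelled GFP-high. All genes had a median of 0.01. Cdkn1a was 5.64 times higher in that library. The cell cycle genes thus stood on the same side as Lgr5 in this pair for all 45 mitosis and replication genes, and Cdkn1a stood on the other side in both pairs. Both tag pairs differed also in marker sums. The colonocyte, enteroendocrine and leukocyte sums, given above, were lower in GFP-high 1 than in GFP-negative 1 and higher in the library labelled GFP-high 2 than in that labelled GFP-negative 2, and their part was not tested.

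**Figure D3:**
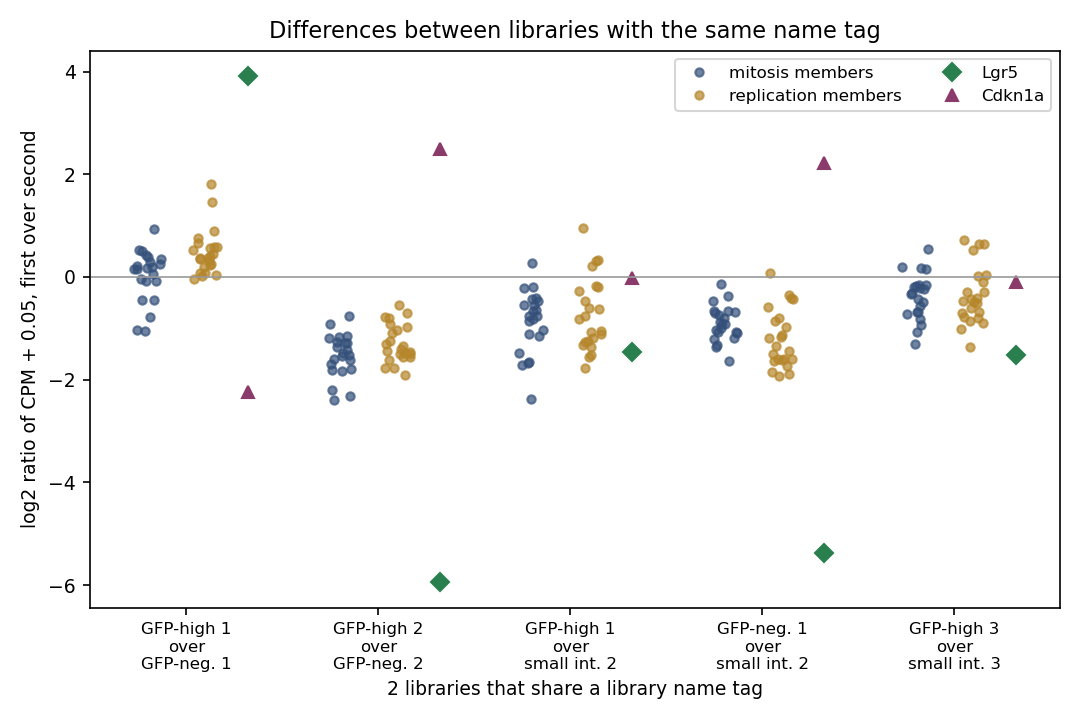
Log2 ratio of CPM (with 0.05 CPM added) between 2 libraries that share a name tag, for each mitosis gene (blue points), each replication gene (ochre points), Lgr5 (green diamond) and Cdkn1a (purple triangle). In the 27_6_1 pair (GFP-high 2 over GFP-negative 2) all 45 points lie below 0, Lgr5 lies below them at -5.95 and Cdkn1a lies above 0.

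The second question was how the regions differed. Mitosis and replication genes were mostly lower in the 6 colon libraries than in the 3 of small intestine, but no member passed the test in any of the 3 region comparisons. In all colon against small intestine, edgeR called 0 of 50 members, while it called 8.76% of 20610 genes, 3.74% as lower in colon. At an unadjusted p under 0.05, 5 of 22 mitosis and 5 of 23 replication genes were lower in colon, against 11.6% of all genes. The median log2 fold change, colon over small intestine, was -0.69 for mitosis genes, with 21 of 22 below 0, and -0.84 for replication genes, with 19 of 23 below 0. Over all genes it was -0.00044, with 50% below 0. Below -0.5 lay 77.3% of mitosis genes and 65.2% of replication genes, against 27% of all genes. Members' shares of negative values and of unadjusted p under 0.05 stood above the background, and their shares of calls after adjustment did not. Without the replicate 2 pair the medians were -0.72 and -0.91, with 21 of 22 and 19 of 23 below 0. The log2 fold changes of single members then differed from those with all libraries by -0.22 (Top2a) to 0.09 (Foxm1), and the smallest edgeR adjusted p was 0.0692 (Mcm10).

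Among mitosis genes the differences ran from -1.41 for Bub1b to 0.13 for Cdk1. Mki67 averaged 47.1 ± 19.3 CPM (SD, n = 6) in colon and 78.1 ± 14.4 CPM (SD, n = 3) in small intestine, a log2 fold change of -0.73 (SE 0.36, edgeR adjusted p = 0.244). Top2a averaged 77.0 ± 50.8 CPM and 184 ± 39.8 CPM, with a log2 fold change of -1.26 (SE 0.54, adjusted p = 0.195). Foxm1 had -1.11 (SE 0.39, adjusted p = 0.118), the smallest p of the mitosis genes after Bub1b. None of these differences passed the threshold after adjustment. Ube2c had -0.68 (SE 0.39, adjusted p = 0.316), Ccnb1 -0.42 (SE 0.31, adjusted p = 0.437) and Cdk1 0.13 (SE 0.40, adjusted p = 0.873).

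By subgroup, the median log2 fold change was -0.99 for the 2 genes of chromosome structure, -0.74 for the 5 spindle motors and binders, -0.71 for the 6 genes of the checkpoint and anaphase promotion, and -0.49 for the 9 cyclins, kinases and Foxm1. Of this last subgroup, 8 of 9 were lower in colon, with Cdk1 the exception.

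In replication the differences ran from -1.39 for Pold1 to 0.29 for Tyms. Mcm2 averaged 79.0 ± 37.5 CPM (SD, n = 6) in colon and 189 ± 90.6 CPM (SD, n = 3) in small intestine, a log2 fold change of -1.26 (SE 0.46, edgeR adjusted p = 0.133). Mcm6 had -0.96 (SE 0.52, adjusted p = 0.297) and Uhrf1 -1.02 (SE 0.50, adjusted p = 0.248). Rrm2 had -0.29 (SE 0.37, adjusted p = 0.671), Pcna 0.04 (SE 0.30, adjusted p = 0.954) and Ung -0.01 (SE 0.45, adjusted p = 0.996). The 6 MCM subunits had a median of -0.92 and ran from -1.26 to -0.74, and the 3 nucleotide supply genes had a median of -0.29 and ran from -0.89 (Rrm1) to 0.29, so the ranges overlapped. Without the replicate 2 pair these medians were -1.10 and -0.44. The genes above 0 were Pcna, Rfc3, Gins2 and Tyms. No test compared the subgroups with each other.

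The G1 regulators had a median of -0.03. Ccnd1 had 0.04 (SE 0.34, edgeR adjusted p = 0.960), Ccnd2 -0.36 (SE 0.31, adjusted p = 0.515) and Ccne1 -0.03 (SE 0.39, adjusted p = 0.970). Cdk6 had -0.30 (SE 0.37, adjusted p = 0.664), and Cdkn1a had -0.03 with the widest error of the 50 genes (SE 0.75, adjusted p = 0.984). Lgr5 had -2.08 (SE 1.13, adjusted p = 0.295).

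**Figure D4:**
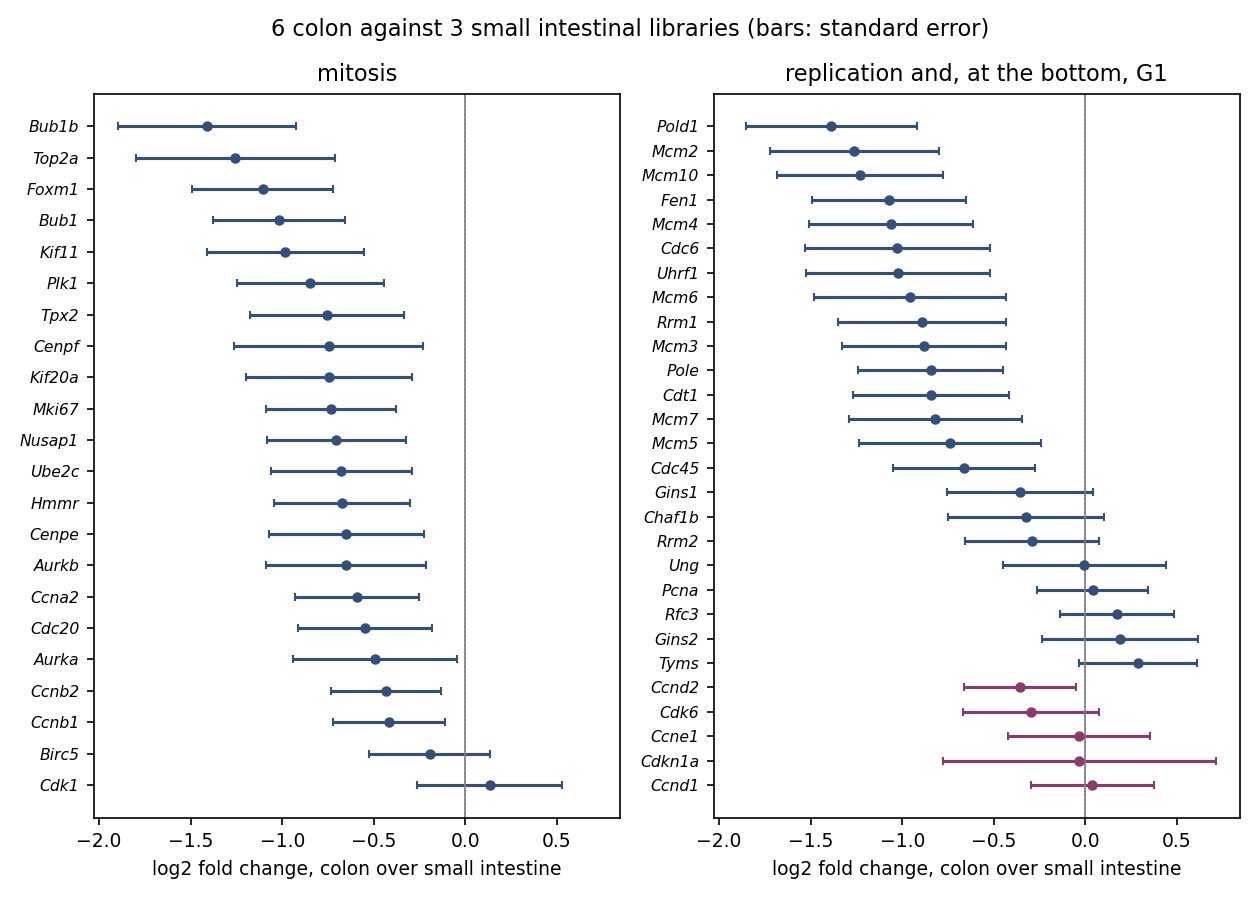
Log2 fold change of each member, 6 colon over 3 small intestinal libraries (points), with bars of 1 standard error of the edgeR fit, sorted within mitosis (left) and within replication and G1 (right, G1 in purple). Most points lie left of 0, from -1.41 for Bub1b, and Cdk1, Pcna, Rfc3, Gins2, Tyms and Ccnd1 lie to its right.

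Each colon fraction alone was also compared with the same small intestinal libraries. In GFP-high against small intestine edgeR called 0 members, beside 5.63% of all genes, and 5 members were lower at an unadjusted p under 0.05, beside 8.82% of all genes. The medians were -0.71 for mitosis and -0.73 for replication genes. Of the 50 members, 6 were below the small intestinal range in all 3 GFP-high libraries, against 13.1% of all genes. They were Top2a, Bub1, Bub1b, Kif11, Ccnb1 and Fen1. In GFP-negative against small intestine edgeR called 0 members, beside 5.64% of all genes, and 4 were lower at an unadjusted p under 0.05, beside 8.45% of all genes. The medians there were -0.69 and -0.84. Of the 50 members, 2, Mki67 and Foxm1, were below the small intestinal range in all 3 libraries, against 13.1% of all genes. For Foxm1 the levels of GFP-negative 2 and small intestine 1 were equal after rounding. In neither fraction did the share of members below the small intestinal range exceed that of all genes. These comparisons share the small intestinal libraries, and over all 6 colon libraries no member stood entirely below small intestine, against 8.39% of all genes. Without GFP-negative 3, the medians in GFP-negative were -0.33 and -0.48. With the name tag as a block they were -0.21 and -0.55 in GFP-negative and -0.80 and -1.01 in GFP-high. Without small intestine 2, the mitosis median in GFP-negative was -0.45 and the replication median in GFP-high was -0.49.

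Calls among the members depended on the tool and on the replicate 2 pair. DESeq2 called Bub1 and Bub1b lower in GFP-high and Bub1b and Pold1 lower in all colon, where it called 4.78% and 6.65% of all genes as lower, while limma-voom called no member. With the name tag as a block, DESeq2 called Bub1, Bub1b, Mcm2 and Mcm4 lower in GFP-high, beside 4.19% of all genes. Without the replicate 2 pair, edgeR called none of the 50 against small intestine, and the medians for mitosis and replication genes were -0.39 and -0.44 in GFP-high and -1.05 and -1.45 in GFP-negative. The same 6 members as before were then entirely below small intestine in GFP-high, beside 16.7% of all genes. In GFP-negative 33 members were, beside 22.5%, and in all colon Bub1, Bub1b, Fen1, Kif11 and Top2a were, beside 10.9%. At an unadjusted p under 0.05 edgeR then had 1 member in GFP-high, 26 in GFP-negative and 20 in all colon, beside 3176, 4940 and 4665 of 21770 genes. DESeq2 without the pair called 5 members lower in all colon (Bub1b, Top2a, Mcm2, Mcm10 and Pold1), beside 5.28% of all genes. It called 13 lower in GFP-negative, beside 5.19% of all genes: Mcm2, Mcm3, Mcm4, Mcm6, Mcm7, Mcm10, Cdc6, Cdt1, Pold1, Fen1, Uhrf1, Top2a and Bub1b. That list holds 11 replication and 2 mitosis genes. The library labelled GFP-negative 2 was the highest of its group for 22 of 22 mitosis and 23 of 23 replication genes. Without that library alone the medians in GFP-negative were also -1.05 and -1.45. Leaving it out thus lowers these genes in GFP-negative, and the counts and calls without the pair cannot serve as a test.

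Small intestine replicate 1 differed from the other small intestinal libraries. It was the lowest of its group for 19 of 22 mitosis and 19 of 23 replication genes, against 7490 of all 20610 genes. Its 6 enterocyte markers, all detected, summed to 32967 CPM, against 524 and 7170 CPM in small intestine 2 and 3 and 76.4 to 235 CPM in colon. The 5 Paneth cell markers summed to 16471 to 26185 CPM in small intestine and 16.6 to 336 CPM in colon. Of the 6 goblet cell markers edgeR called 3 higher in colon, with a median log2 fold change of 2.90 over the 6. The part of enterocytes, Paneth cells and goblet cells in the region difference was not tested.

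Pairs that share a tag across regions gave values on the same side, but they hold only small intestine 2 and 3. The median deviations of those libraries were 0.84 and 0.57 for mitosis and 1.00 and 0.82 for replication genes. Small intestine 1, at 0.10 and -0.14, shares its tag with no other library. From GFP-high 1 to small intestine 2, mitosis genes had a median log2 ratio, colon over small intestine, of -0.76 with 1 of 22 higher in colon, and replication genes -0.82 with 4 of 23 higher. From GFP-negative 1 to the same library they had -0.92 with 0 of 22 and -1.35 with 1 of 23. GFP-high 3 against small intestine 3 gave -0.32 with 4 of 22 and -0.47 with 6 of 23. Lgr5 was lower in the colon library of each of these 3 pairs.

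Other genes of the pathway, listed apart from the members, showed how far the pattern reached. Of 50 other mitosis genes, 44 were lower in colon than in small intestine with a median log2 fold change of -0.60, and of 40 other replication genes 35 were lower with a median of -0.39, and edgeR called 0 in both lists. Bub3, a checkpoint protein and the most abundant of these mitosis genes, had 0.22 (SE 0.21, adjusted p = 0.570), and Pold2, a subunit of polymerase delta, had -0.61 (SE 0.37, adjusted p = 0.350). Of 18 E2F, RB and DREAM factors, 15 were lower in colon with a median of -0.65, and 1 was called lower, beside 3.74% of all genes. This was Tfdp2, a partner of E2F factors, at 36.2 ± 5.81 CPM (SD, n = 6) in colon and 63.2 ± 9.58 CPM (SD, n = 3) in small intestine (log2 fold change -0.80, SE 0.20, adjusted p = 0.0396).

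Among 11 other tested genes for G1 cyclins, kinases and CDK inhibitors, 1 was called lower and 1 higher in colon, beside 3.74% and 5.02% of all genes. Cdc25a, the phosphatase that activates CDKs at the start of DNA synthesis, fell from 65.1 ± 8.22 CPM (SD, n = 3) in small intestine to 28.8 ± 9.37 CPM (SD, n = 6) in colon, a log2 fold change of -1.18 (SE 0.30, edgeR adjusted p = 0.0433). Cdkn2d, an inhibitor of D-type cyclin kinases, was higher in colon, at 44.5 ± 11.7 CPM against 22.3 ± 2.96 CPM, a log2 fold change of 0.98 (SE 0.22, adjusted p = 0.0271). For both genes the colon and small intestinal libraries did not overlap. Of 12 p53 targets 1, Trp53inp1, was called higher in colon, at 12.0 ± 2.63 CPM against 4.60 ± 0.62 CPM, a log2 fold change of 1.38 (SE 0.29, adjusted p = 0.0201), beside the same 5.02% of all genes called higher. Without the replicate 2 pair edgeR called none of these 4 genes, with log2 fold changes of -0.80 for Tfdp2 (adjusted p = 0.102), -1.35 for Cdc25a (adjusted p = 0.0706), 1.06 for Cdkn2d (adjusted p = 0.0663) and 1.40 for Trp53inp1 (adjusted p = 0.0607). Leaving out single libraries, the call of Tfdp2 was lost without any 1 of the 9, that of Cdc25a without any but GFP-negative 2, that of Cdkn2d without GFP-high 2, GFP-negative 1 or any small intestinal library, and that of Trp53inp1 without GFP-negative 1 or any small intestinal library. Over all 21 alternatives the adjusted p ranged from 0.00444 to 0.390 for Tfdp2, from 0.00555 to 0.323 for Cdc25a, from 0.000827 to 0.330 for Cdkn2d and from 4.06e-05 to 0.338 for Trp53inp1, and no sign changed.

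Gene length went with the level of mitosis genes in opposite directions in 2 libraries of the same label. Across the 22 mitosis genes, the Spearman rho between gene length and log2 CPM minus the gene's mean was -0.645 in GFP-high 1 and 0.766 in GFP-high 3. The other 7 libraries had values from -0.382 in GFP-high 2 to 0.435 in small intestine 3. Across the 23 replication genes it was -0.208 and 0.307 in GFP-high 1 and 3, and over all libraries it ran from -0.522 in GFP-high 2 to 0.442 in small intestine 3. Across 9924 protein-coding genes with a mean above 5 CPM it was -0.204 and 0.198, and its lowest and highest values were again those of GFP-high 2, at -0.279, and small intestine 3, at 0.326. The library labelled GFP-high 2 also had low and small intestine 3 high levels of the cell cycle genes, and the part of gene length in these levels was not tested. Genes of a library share its depth and RNA and are not independent, so these values describe the libraries. Cenpf, the longest mitosis gene in the table, stood at 25.3 CPM in GFP-high 1 and 69.0 CPM in GFP-high 3, while Ube2c, one of the shorter ones, stood at 483 and 320 CPM.

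**Figure D5:**
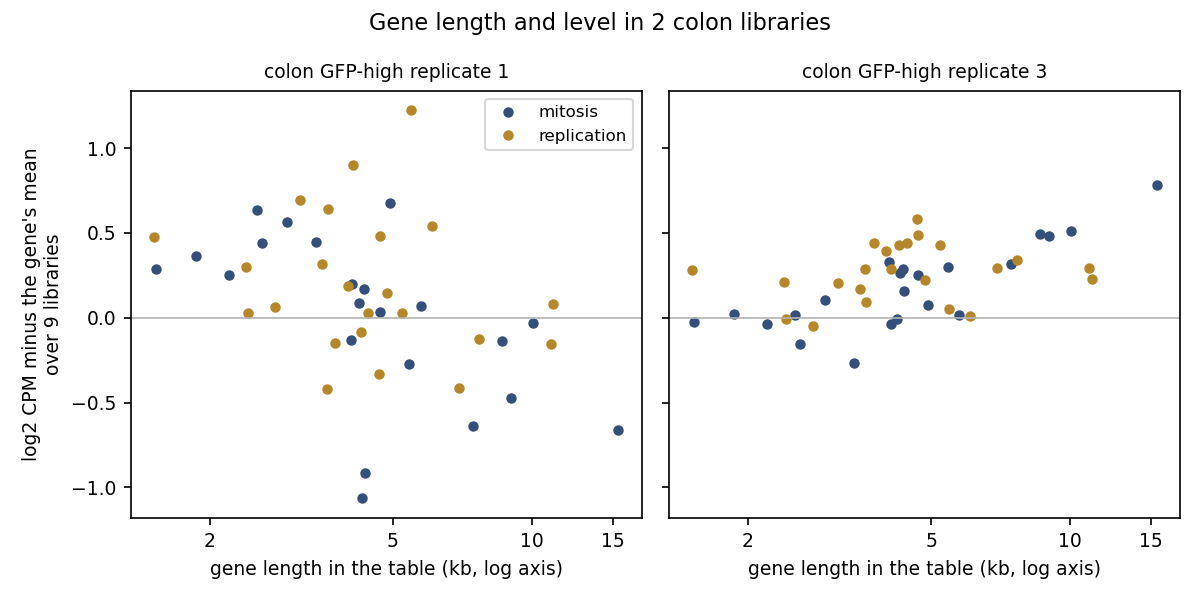
Log2 CPM minus the gene's mean over 9 libraries against gene length (kilobases, log axis) in colon GFP-high 1 (left) and GFP-high 3 (right), for mitosis (blue) and replication genes (ochre). Mitosis genes slope down in GFP-high 1 (rho -0.645) and up in GFP-high 3 (rho 0.766).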

How the data were processed

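The submitters' processing notes name STAR, featureCounts, Subread and edgeR and the genome build mm10 without versions. Per the file headers, the table gives the raw count of each gene in each library, and a TMM scaling factor per library, which is a ratio. It also holds deposited values of log2 CPM, log2 TPM and log2 RPKM, which entered no test. How strand and reads with several matches were handled is not given in the sources used here, so overlapping genes are uncertain. Counts were tested in R 4.3.3 with edgeR 4.0.16: filterByExpr by group, 20610 genes tested, TMM, and glmQLFit with two-sided glmQLFTest in 1 fit of all 9 libraries with 3 group means. P-values were adjusted by Benjamini-Hochberg over all genes tested, and a gene was called at an adjusted p under 0.05. The contrast of all colon libraries used the mean of both colon groups. Levels are CPM on TMM-scaled totals, and deviations and tag pairs used log2 of CPM plus 0.05. Precision was set by the spread between libraries (common biological coefficient of variation 0.726) more than by depth. Replicates differed beyond counting noise, with a chi-square per gene of 423 to 1046.

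Alternatives were DESeq2 1.42.0, limma-voom (limma 3.58.1), other scalings, no filter, blocks, and fits without single libraries or the colon replicate 2 pair. Coordinates and exon overlaps are from GENCODE M21 (GRCm38). Fold changes with errors are given for 17 members set by rule (6 of mitosis, 6 of replication and all G1 regulators) and for Lgr5. In the other lists they are given for genes called between the regions or else for an abundant gene. RefSeq promoters were found for 17 of 22 mitosis and 19 of 23 replication genes. The members and lists were chosen with earlier results of these data known.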

Additional observations from a re-analysis of the deposited data

How the results depend on the processing

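With edgeR no member was called in any of the 4 comparisons under any scaling, filter, block or left-out library, nor with limma-voom. With DESeq2, 2 of 50 members were called, as lower, in colon GFP-high and 2 of 50 in all colon against small intestine. Of all genes it called 4.78% and 6.65% as lower there. DESeq2 without the replicate 2 pair called 13 lower in GFP-negative and 5 in all colon, beside 5.19% and 5.28% of all genes. With the name tag as replicate block it called 4 lower in GFP-high, beside 4.19% of all genes. Both of these fits were chosen after seeing the data. The pair left out held the highest GFP-negative library for every mitosis and replication member. Leaving out 1 library at a time, the median of colon against small intestine stayed between -0.89 and -0.50 for mitosis and between -1.13 and -0.57 for replication genes. The medians between colon fractions ranged from -0.36 to 0.28 and from -0.20 to 0.66. Upper-quartile factors moved the median of all genes to 0.16 in all colon and to 0.22 in GFP-high against small intestine, from -0.00044 and 0.02, and the mitosis median relative to it stayed negative in both.

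Deviations from the group means were correlated between libraries of different groups. The correlations ran from -0.627 to 0.315 for the same title number and from -0.627 to 0.306 for the same tag. The -0.627 in both is the colon replicate 2 pair, where Lgr5 went against the labels. Between libraries that shared neither number nor tag, the correlations ran from -0.325 to 0.488. So few values cannot decide whether the libraries were paired. The title number as a replicate block left 0 members called and 508, 528 and 887 of all genes in GFP-high, GFP-negative and all colon against small intestine, where the fit without it called 1161, 1163 and 1805. The tag as a block left 18, 0 and 17, with Cdkn1a at 0.82 (0.84 by DESeq2) and, with the title number, at 0.18. DESeq2 called 2713, 2870 and 3618 of all genes, and without the replicate 2 pair edgeR called 504, 889 and 1082. Leaving out 1 library gave 566 to 1334, 530 to 1074 and 981 to 1758.

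Signs near 0 changed in colon against small intestine. Ung had 0.018 with RLE factors, 0.017 with DESeq2, 0.17 with upper-quartile factors, and 0.026 (DESeq2 0.066) without the replicate 2 pair. Cdkn1a had 0.0082 with RLE factors and with DESeq2, 0.013 with limma-voom and 0.13 with upper-quartile factors, where Ccne1 had 0.12. Pcna had -0.019 and Ccnd1 -0.025 without the pair. Leaving out single libraries gave -0.040 to 0.38 for Cdk1, -0.11 to 0.34 for Pcna, -0.29 to 0.17 for Ung, -0.21 to 0.25 for Ccnd1, -0.54 to 0.045 for Ccnd2, -0.22 to 0.38 for Ccne1 and -0.49 to 0.70 for Cdkn1a. Lgr5 was called in colon against small intestine without the pair, at -2.98 (edgeR adjusted p = 0.0196, range over its alternatives 5.97e-07 to 0.887). The pair was left out because of its Lgr5 levels, so this call cannot serve as a test of Lgr5. Of 21 alternatives, 2 called it. The cause of these changes was not tested.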
